A study of Mus musculus with 12 samples.

Results

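CD4+ T cells that carry the regulatory programme (Treg) were compared with the remaining, conventional CD4+ T cells (Tconv) taken from the same kind of tumour, across every gene in the deposited table. The members are 4 RNA sequencing libraries, 2 of tumour Treg and 2 of tumour Tconv, chosen by the cell and tissue names in their labels, out of 12 libraries in all. The tumour was TC-1, a transplantable mouse line derived from lung epithelium, of which C57BL/6 mice received 500000 cells into the tail vein. After 3 weeks CD4+ cells were enriched from the tumour by negative selection, and cells positive for green fluorescent protein (GFP) were sorted as Treg and cells negative for it as Tconv. All 4 libraries therefore share strain, tumour line, time and tissue, and the labels set them apart by the GFP gate. The labels state neither the age or sex of the mice nor what drives GFP. The other 8 libraries are Treg and Tconv from the spleen of tumour-bearing mice, given here beside the tumour values, and from the spleen of normal mice, used to estimate the spread. In the descriptions the tumour libraries carry the letters LG. Those letters may be short for lung, and mice without tumour gave no library from that organ. Whether the replicates of a group are separate mice is not stated. A p value here thus reflects only how far these samples spread, which may be technical. The spread was estimated over all 12 libraries, while replicates lay further apart in the tumour groups than in the spleen groups. SEs and p values in the tumour may therefore be too small for many genes.

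Treg hold back the immune responses of other lymphocytes and depend on the transcription factor Foxp3. They carry the high-affinity receptor for interleukin 2 (IL-2), a cytokine that Tconv make and Treg take up, and they act through inhibitory receptors, extracellular adenosine, transforming growth factor beta (TGF-beta) and cytokines such as IL-10. In barrier tissues and in tumours many Treg also carry ST2, the receptor for IL-33, a cytokine released by stromal and epithelial cells, and the study's title names this pathway in the accumulation of Treg in tumours. Tconv include naive cells, which recirculate through lymphoid organs and depend on the factors TCF1 and LEF1, and effector and memory helper cells, which make cytokines.

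The start regions of Foxp3 and of genes among those that differed most are shown first, as background to the differences below. Which start the counted transcripts used was not measured. Each line gives the 250 bases upstream of the annotated start, 5′ to 3′ on the gene's strand, from RefSeq on GRCm38.p6 (mm10). Capitals mark matches to a forkhead motif (TGTTTAC, written also as TATTTAC), a TCF/LEF motif (CTTTGAA, written also as CTTTGAT, further as CTTTGTA and lastly as CTTTGTT), an AP-1 motif (TGANTCA) or an NF-kB motif (GGGNNTTCC), searched on both strands. The first 4 lines are genes higher in tumour Treg and the last 3 are genes lower there.
Foxp3, chrX:7579426-7579675 (forward strand): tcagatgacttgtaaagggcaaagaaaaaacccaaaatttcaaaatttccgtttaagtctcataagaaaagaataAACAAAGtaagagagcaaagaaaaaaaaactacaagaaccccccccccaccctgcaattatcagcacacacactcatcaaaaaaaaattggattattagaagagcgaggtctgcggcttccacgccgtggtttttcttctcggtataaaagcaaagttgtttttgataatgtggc
Il2ra, chr2:11642542-11642791 (forward strand): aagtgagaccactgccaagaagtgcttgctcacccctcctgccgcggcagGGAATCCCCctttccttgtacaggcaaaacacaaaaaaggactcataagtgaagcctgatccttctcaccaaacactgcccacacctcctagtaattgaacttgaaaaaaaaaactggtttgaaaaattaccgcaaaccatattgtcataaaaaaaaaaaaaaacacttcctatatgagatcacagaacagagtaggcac
Sv2c, chr13:96132578-96132827 (reverse strand): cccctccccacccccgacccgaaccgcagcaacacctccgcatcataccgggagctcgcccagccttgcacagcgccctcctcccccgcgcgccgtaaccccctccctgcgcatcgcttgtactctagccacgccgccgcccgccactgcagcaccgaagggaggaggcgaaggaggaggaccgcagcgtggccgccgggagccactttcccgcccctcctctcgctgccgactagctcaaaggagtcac
Havcr2, chr11:46454681-46454930 (forward strand): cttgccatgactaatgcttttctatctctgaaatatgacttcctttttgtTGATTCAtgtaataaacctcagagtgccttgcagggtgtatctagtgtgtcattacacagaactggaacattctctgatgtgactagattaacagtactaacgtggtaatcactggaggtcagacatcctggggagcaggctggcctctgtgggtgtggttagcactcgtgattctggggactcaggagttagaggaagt
Vipr1, chr9:121642466-121642715 (forward strand): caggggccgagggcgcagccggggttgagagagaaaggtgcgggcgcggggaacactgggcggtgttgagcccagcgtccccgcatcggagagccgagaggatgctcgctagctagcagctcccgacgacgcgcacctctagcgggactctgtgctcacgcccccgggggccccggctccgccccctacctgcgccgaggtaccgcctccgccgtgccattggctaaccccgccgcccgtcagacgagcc
Dapl1, chr2:59484403-59484652 (forward strand): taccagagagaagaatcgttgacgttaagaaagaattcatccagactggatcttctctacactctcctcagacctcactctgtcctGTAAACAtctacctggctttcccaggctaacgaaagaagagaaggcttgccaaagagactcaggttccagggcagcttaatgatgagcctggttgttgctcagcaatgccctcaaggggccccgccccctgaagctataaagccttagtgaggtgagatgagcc
Hs3st3b1, chr11:63922285-63922534 (reverse strand): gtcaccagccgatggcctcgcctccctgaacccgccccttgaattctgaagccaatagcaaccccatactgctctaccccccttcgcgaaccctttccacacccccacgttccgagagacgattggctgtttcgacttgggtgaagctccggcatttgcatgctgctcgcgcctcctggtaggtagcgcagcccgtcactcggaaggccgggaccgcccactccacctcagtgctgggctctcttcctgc
The Foxp3 window held 1 TCF/LEF match, the Il2ra window 1 NF-kB match, the Havcr2 window 1 AP-1 match and the Dapl1 window 1 forkhead match, and the windows of Sv2c, Vipr1 and Hs3st3b1 held none of the 4 motifs. Of the start windows of Foxp3 in the table, the more upstream one is shown. Over all 27025 windows in the RefSeq table, a forkhead match was found in 5.66%, a TCF/LEF match in 14.9%, an AP-1 match in 6.85% and an NF-kB match in 4.85%. Over the windows of 10133 tested genes, a forkhead match was found in 3.48%, a TCF/LEF match in 10.3%, an AP-1 match in 4.39% and an NF-kB match in 6.18%. Among the 1020 windows of genes at least 2-fold higher in tumour Treg these shares were 4.31%, 9.51%, 5.78% and 6.96%, and among the 720 windows of genes at least 2-fold lower they were 4.03%, 10.6%, 3.61% and 4.44%. These shares are a description of short windows, and no test was made on them.

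The tumour libraries held 24111546 and 23990396 counts (Treg 1 and 2) and 18818716 and 22773153 counts (Tconv 1 and 2), and over all 12 libraries the total ran from 18624132 to 24111546. The replicates of tumour Treg lay closer together than those of tumour Tconv: 12 of 9067 genes differed more than 2-fold between the Treg libraries, against 244 of 8887 between the Tconv libraries and at most 7 in any spleen group. The Tconv difference had a direction. Among genes with a level of at least 8 CPM (counts per 1000000), 271 were at least 2-fold higher in Tconv 2 than in Tconv 1 and 4 were at least 2-fold lower. Summed markers of fibroblasts were 2.64-fold higher in Tconv 2 than in Tconv 1, and those of macrophages and monocytes 2.65-fold. Values without 1 tumour library are given below for called genes whose call was lost or whose difference moved by more than 1.5-fold.

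Levels are given as CPM of the scaled library total for libraries 1 and 2 in that order, and a difference is Treg minus Tconv on the log2 scale ± SE from edgeR's quasi-likelihood fit, so that 1 means 2-fold. A gene is called when its adjusted p (Benjamini-Hochberg) is under 0.05. CPM are not divided by gene length and are not compared between genes. Since the RNA was pooled over many cells, fewer cells of a type and less RNA per cell cannot be told apart.

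Tumour Treg and tumour Tconv differed over much of the transcriptome. Of 13509 tested genes 7277 (53.9%) were called, 3676 higher in Treg (27.2%) and 3601 lower (26.7%). Of these, 1413 were at least 2-fold higher and 1008 at least 2-fold lower, and 250 and 151 differed at least 8-fold. The median difference over all tested genes was 0.003. In 9674 genes (71.6%) both Treg libraries lay on the same side of both Tconv libraries. The count of calls fell to 2693 when a difference beyond 1.5-fold was required.

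**Figure D1:**
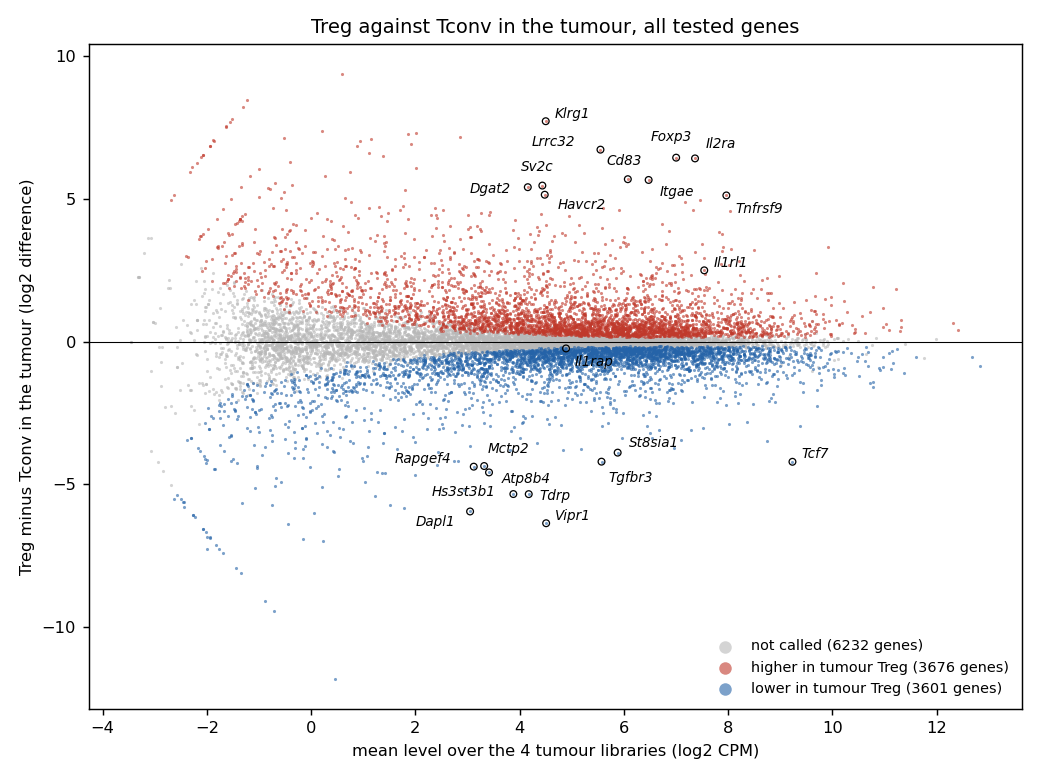
Each point is 1 of the 13509 tested genes, with its mean level over the 4 tumour libraries (log2 CPM, horizontal) and its Treg minus Tconv difference in the tumour (log2, vertical). Red points are the 3676 genes called higher in tumour Treg and blue points the 3601 called lower, and the circled names run from Klrg1 at 7.73 to Vipr1 at −6.36.

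Foxp3 (chromosome X, 7573644 to 7595245) checks the sort and is no finding, since the cells were gated as Treg. Its level was 1155 and 1247 CPM in tumour Treg and 16.2 and 11.5 CPM in tumour Tconv, a difference of 6.45 ± 0.15 (adjusted p = 3.4e-11). All 4 libraries thus stood where their labels put them. The T cell genes Cd3e and Cd4 were present in all 4, with Cd3e at 622 and 681 CPM in Treg and 669 and 603 CPM in Tconv and Cd4 at 959.7 and 1121 CPM and 1417 and 1276 CPM. In the spleen of tumour-bearing mice the difference was 6.07.

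Il1rl1, which encodes ST2 (chromosome 1, 40429570 to 40465415), was higher in tumour Treg but was also present in tumour Tconv. It stood at 462 and 441 CPM in Treg and at 60.1 and 98.6 CPM in Tconv, and the groups did not overlap. The difference of 2.50 ± 0.27 (adjusted p = 5.7e-06) was smaller than in the spleen of tumour-bearing mice, where it was 4.89 with Treg at 59.9 and 87 CPM and Tconv at 3.70 and 1.39 CPM. The difference between the tumour and spleen values was −2.39 (adjusted p = 0.0046), or −3.21 without TB spleen Tconv 1, where TB stands for tumour-bearing. Il1rl1 was 1.64-fold higher in Tconv 2 than in Tconv 1. The coreceptor gene Il1rap, at 25.9 and 28.7 CPM in Treg and 31.3 and 32.9 CPM in Tconv, differed by −0.23 ± 0.08 (adjusted p = 0.029). That call was lost without tumour Treg 1 (adjusted p = 0.172), without tumour Tconv 2 (0.119), under DESeq2 and with the 4 tumour libraries alone. Transcripts of the ligand, Il33, were few: 2.43 and 2.80 CPM in Treg and 0.564 and 2.77 CPM in Tconv, with Tconv 2 inside the range of Treg and Tconv 1 below it. Its difference of 0.62 ± 0.61 was not called (adjusted p = 0.44). It was 2.19 (adjusted p = 0.0070) without Tconv 2 and −0.11 without Tconv 1. Il33 was 4.91-fold higher in Tconv 2 than in Tconv 1, beside 2.64-fold for the fibroblast markers, whose part in the Il33 values was not tested.

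The 10 largest increases among well-counted genes (mean of at least 3 on the log2 CPM scale and no overlap between groups) included Foxp3 and 7 proteins of the cell surface. Klrg1 (chromosome 6, 122270596 to 122282882), an inhibitory receptor for cadherins found on terminally differentiated lymphocytes, was at 368 and 323 CPM in Treg and 0.846 and 2.27 CPM in Tconv. Treg libraries were thus high and Tconv libraries near the detection limit, with a difference of 7.73 ± 0.33 (adjusted p = 2.0e-09), or 8.66 without Tconv 2. Lrrc32, which encodes the receptor that holds latent TGF-beta on the Treg surface, was at 442 and 555 CPM in Treg and 3.16 and 5.99 CPM in Tconv (6.73 ± 0.22). Il2ra, the alpha chain of the IL-2 receptor, was at 1546 and 1502 CPM in Treg and 18.3 and 17.2 CPM in Tconv (6.42 ± 0.18). In each of these genes the lowest Treg library lay above the highest Tconv library, as their pick by size and absence of overlap required. Cd83, an activation glycoprotein, was at 509 and 462 CPM against 11.2 and 7.71 CPM (5.70 ± 0.15). Itgae, the integrin chain that binds E-cadherin on epithelium, was at 666 and 600.1 CPM against 13.7 and 11.3 CPM (5.67 ± 0.17). Tnfrsf9, a costimulatory receptor of the TNF receptor family induced by antigen stimulation, was at 1460.0 and 1506 CPM against 48.7 and 36.4 CPM (5.13 ± 0.12). The replicates of these receptors agreed closely on the Treg side. Havcr2, an inhibitory checkpoint receptor, was at 126 and 139 CPM in Treg and 3.27 and 4.13 CPM in Tconv (5.15 ± 0.23). Dgat2, an enzyme of the last step of triglyceride synthesis, was at 129 and 102 CPM in Treg and 2.43 and 2.95 CPM in Tconv (5.42 ± 0.15). Sv2c, a synaptic vesicle glycoprotein, was at 152 and 137 CPM in Treg and 4.46 and 2.22 CPM in Tconv (5.47 ± 0.24). Each of the 10 genes had counts in both Tconv libraries, so that no difference here is a bound.

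The 10 largest decreases included receptors, signalling proteins and glycan enzymes, and the gene of the T cell factor TCF1. Vipr1 (chromosome 9, 121642716 to 121672954), the receptor for vasoactive intestinal peptide, was at 1.87 and 3.15 CPM in Treg and 198 and 214 CPM in Tconv, a difference of −6.36 ± 0.17 (adjusted p = 7.2e-11). Dapl1, a gene of the death-associated protein family, was at 0.738 and 1.31 CPM against 64.4 and 62.8 CPM (−5.95 ± 0.16). Tcf7 (chromosome 11, 52252371 to 52283014), the gene of TCF1, was abundant in Tconv at 2747 and 2480.0 CPM and low in Treg at 116 and 167 CPM (−4.21 ± 0.15). The Treg libraries of these genes lay at a small fraction of the Tconv level. Size and absence of overlap between groups were the grounds of the pick and are no separate result. Tdrp fell to 2.00 and 3.71 CPM in Treg from 114 and 118 CPM in Tconv (−5.34 ± 0.16). Hs3st3b1, a heparan sulfate sulfotransferase, was at 1.87 and 2.71 CPM against 87.7 and 97.7 CPM (−5.34 ± 0.14). St8sia1, the synthase of the ganglioside GD3, was at 14.8 and 15.7 CPM against 226 and 227 CPM (−3.89 ± 0.11). Both of these enzymes act on cell surface glycans. Tgfbr3, the TGF-beta coreceptor betaglycan, was at 9.29 and 12.9 CPM against 204 and 205 CPM (−4.20 ± 0.12). Rapgef4, an exchange factor for Rap that is switched on by cyclic AMP, was at 1.56 and 2.19 CPM against 35.9 and 42.1 CPM (−4.38 ± 0.16). Atp8b4, of the phospholipid flippase family, differed by −4.58 ± 0.13, and Mctp2 by −4.36 ± 0.14. In each of these genes but Atp8b4 Treg 1 was the lower of the Treg libraries.

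**Figure D2:**
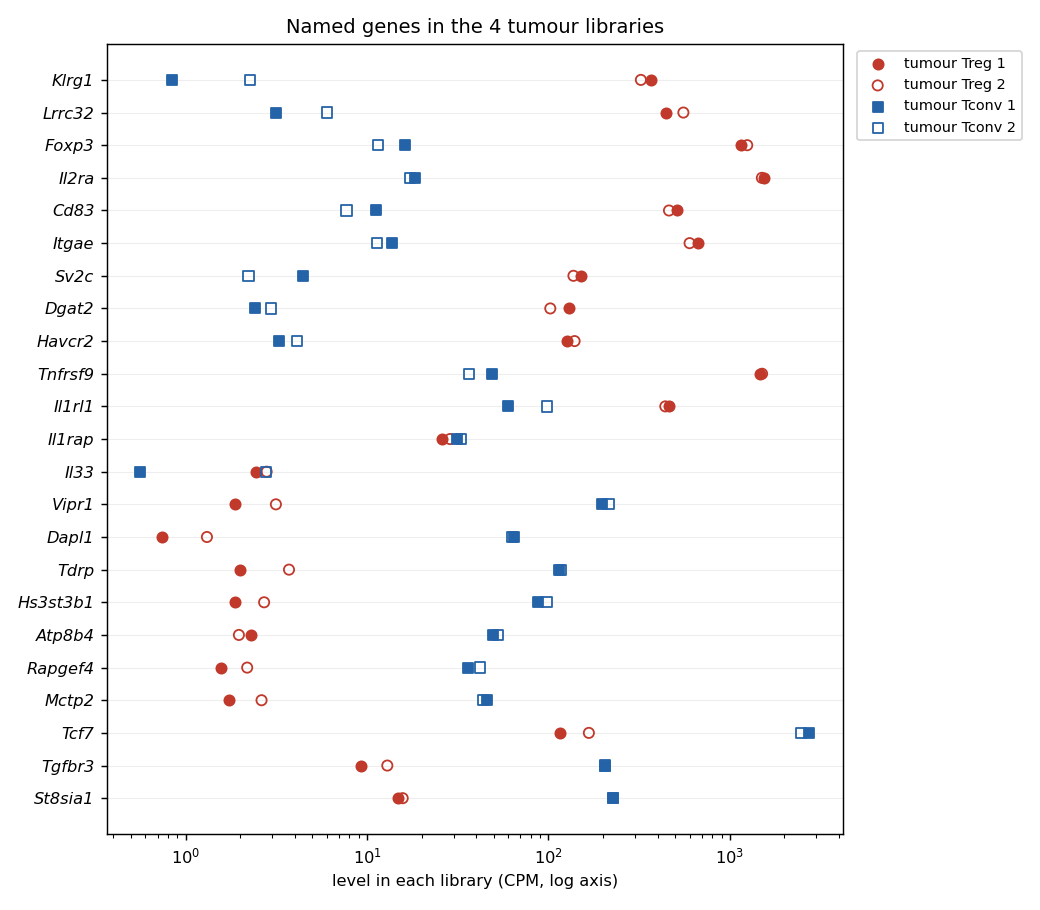
Level of the named genes in each of the 4 tumour libraries (CPM, logarithmic axis), with red circles for Treg and blue squares for Tconv, filled for replicate 1 and open for replicate 2. Red and blue symbols lie apart in the 10 highest and 10 lowest genes, as their pick required, and in Il1rl1. Il33 shows Tconv 2 at 2.77 CPM beside Treg at 2.43 and 2.80.

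Gene lists place these genes among others of their kind. Each list is read against the share of all tested genes that were called higher (27.2%) or lower (26.7%). The lists were chosen with earlier results of these data known, so their counts are a description and no independent evidence. All 17 genes of Treg identity, Foxp3 among them, were higher, with a median of 3.33 (spleen median 3.30, also with 17 higher). Ikzf2, the gene of the Treg factor Helios, was at 984 and 970.0 CPM in Treg and 31.9 and 31.2 CPM in Tconv (4.95 ± 0.12), and Ctla4, the inhibitory receptor that takes B7 ligands from antigen-presenting cells, at 3086 and 3043 CPM against 329 and 282 CPM (3.33 ± 0.12). The smallest differences were those of Ecm1, an extracellular matrix protein, at 231 and 266 CPM against 151 and 179.5 CPM (0.59 ± 0.11), and of Gpr83, an orphan receptor, at 16.4 and 20.7 CPM against 11.2 and 10.1 CPM (0.80 ± 0.13). Both genes had larger differences in the spleen, 2.02 and 2.63, with −1.43 and −1.83 between sites (adjusted p = 8.9e-05 and 1.9e-05). Of the effector and tissue Treg genes 21 of 24 were higher and 1 was lower (median 2.07). The spleen of tumour-bearing mice was similar, with 20 higher and 2 lower (median 1.91). In the tumour Areg, the tissue repair factor amphiregulin, was at 322 and 412 CPM in Treg and 33.7 and 35 CPM in Tconv (3.42 ± 0.12). Fgl2, a secreted suppressive protein, was at 1403 and 1155 CPM against 60.2 and 47.7 CPM (4.57 ± 0.24). Itgb8, the integrin chain that releases active TGF-beta, was at 56.7 and 47 CPM against 2.93 and 1.59 CPM (4.55 ± 0.25). The groups did not overlap in 22 of the 24 genes of this list, beside 71.6% of all tested genes. Ebi3, a subunit of IL-27 and IL-35, differed by 4.46 ± 0.25, with 5.23 without Tconv 1 and 3.86 without Tconv 2. Tigit, Prdm1, Gata3, Rora and Icos, which are receptors and factors of effector Treg, were higher by 3.23, 2.25, 1.61, 1.86 and 1.44. Irf4, a factor of effector differentiation, stood at 185 and 179 CPM in Treg and 186 and 172 CPM in Tconv (0.02 ± 0.09, adjusted p = 0.87), while its spleen difference was 1.73 (−1.71 between sites, adjusted p = 5.3e-06). Myb, a factor of stem-like cells, was the member that fell, at 25.4 and 23.2 CPM in Treg and 135 and 135 CPM in Tconv (−2.47 ± 0.10).

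Genes reported in tumour Treg, most but not all of them of the cell surface, were higher in 9 of 14 and lower in 2 (median 1.60). The list was not particular to the tumour: in the spleen of tumour-bearing mice 10 were higher and 3 lower (median 2.17). In the tumour Ccr8, a chemokine receptor of tumour Treg, was at 523 and 462 CPM in Treg and 59.7 and 50.9 CPM in Tconv (3.16 ± 0.12). Il1r2, the decoy receptor for IL-1, was at 87.2 and 75.6 CPM against 6.49 and 3.81 CPM (4.01 ± 0.30). The B7 ligand Cd80 differed by 3.77 ± 0.23 (4.41 without Tconv 2) and Cd86 by 2.81 ± 0.16. Ccr4 and Cxcr3, receptors of skin and inflamed-tissue homing, were higher by 2.19 and 1.83. Acp5, an acid phosphatase, was lower at 182 and 181 CPM in Treg against 300.1 and 249 CPM in Tconv (−0.60 ± 0.08), as was Cd177 at a few CPM (−1.61 ± 0.39). Layn, Mageh1 and Ptgir were not called, and the first pair lay under 3 CPM in every tumour library.

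The IL-33 and IL-1 family list, which holds the receptors, ligands and signalling proteins around ST2, was mixed, with 10 of 23 genes higher and 5 lower (median 0.24). The lower count dropped to 2 without tumour Treg 1. Beyond 1.5-fold, 5 genes of the list were called higher and 0 lower. Among receptors, Il18r1 was at 236 and 236 CPM in Treg and 139.6 and 145 CPM in Tconv (0.73 ± 0.09), Il18rap differed by 1.07 ± 0.21, and Sigirr, which restrains the pathway, by 1.03 ± 0.13. Il1r1, the IL-1 receptor, was at 10.6 and 12.5 CPM against 12.2 and 20.1 CPM and was not called. The antagonist Il1rn was at 24.6 and 22.6 CPM in Treg and 1.97 and 5.63 CPM in Tconv (2.60 ± 0.35, or 3.57 without Tconv 2). In the cell interior the adaptor Myd88 and the kinase Irak1 differed by −0.07 and −0.02 and were not called, while the kinase Irak2 was at 93.3 and 96.7 CPM against 35.8 and 32.8 CPM (1.47 ± 0.08). Traf6 and Map3k7, which carry the signal to NF-kB, were lower by less than 1.5-fold (−0.33 ± 0.07 and −0.32 ± 0.06). Nfkbia, the NF-kB inhibitor that is itself an NF-kB target, was at 980.4 and 915 CPM in Treg and 493 and 455 CPM in Tconv (1.00 ± 0.07). Tnfaip3, another target, was at 4253 and 4166 CPM in Treg and 4527 and 3361 CPM in Tconv, overlapped between groups and was not called (0.09 ± 0.11).

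The list of TNF family receptors and ligands was mixed, with 12 of 29 genes higher and 10 lower (median −0.07, mean 0.35). On the receptor side Tnfrsf8 was at 32.7 and 29.6 CPM in Treg and 0.677 and 0.272 CPM in Tconv (6.08 ± 0.24, or 6.78 without Tconv 1). Tnfrsf4, the receptor OX40, was at 1115 and 1101 CPM against 136 and 105 CPM (3.21 ± 0.12). Tnfrsf18, the receptor GITR, was at 896 and 815 CPM against 213 and 170.0 CPM (2.16 ± 0.10), and Tnfrsf1b, the second TNF receptor, at 2621 and 2223 CPM against 639 and 521 CPM (2.06 ± 0.11). These costimulatory receptors were high in both Treg libraries. Tnfrsf1a, the TNF receptor with a death domain, was lower at 29.9 and 35.1 CPM in Treg and 69.1 and 86.1 CPM in Tconv (−1.26 ± 0.11). On the ligand side Cd40lg, the helper signal to antigen-presenting cells, was at 7.34 and 7.95 CPM in Treg and 114 and 96.4 CPM in Tconv (−3.78 ± 0.11). Fasl, the ligand of the death receptor Fas, was at 4.99 and 6.77 CPM against 69.2 and 67.2 CPM (−3.53 ± 0.18), and Fas itself was also lower (−0.42). Tnfsf8, the ligand of Tnfrsf8, was at 18.6 and 22.5 CPM against 122 and 111 CPM (−2.50 ± 0.10). The ligands Tnfsf10 and Ltb were higher in Treg by 1.91 and 0.64, and Tnf itself was not called, at 7.55 and 9.53 CPM against 9.70 and 8.71 CPM.

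Inhibitory receptors and B7 family genes were higher in 13 of 19 and lower in 4 (median 0.77). Pdcd1, the checkpoint receptor PD1, was at 874 and 709 CPM in Treg and 126 and 97.6 CPM in Tconv (2.83 ± 0.18). Its ligand gene Pdcd1lg2 was at 64 and 66.1 CPM against 9.03 and 7.94 CPM (2.94 ± 0.12) and the other ligand, Cd274, at 224 and 255 CPM against 127 and 107 CPM (1.03 ± 0.10). Lag3, which binds class II molecules, was at 131 and 107 CPM against 23 and 11 CPM (2.83 ± 0.38). The PD1 receptor gene Pdcd1 and its ligand genes Pdcd1lg2 and Cd274 were thus all higher in Treg. Btla, an inhibitory receptor of the immunoglobulin family, was lower at 44.9 and 53.7 CPM in Treg and 137 and 140.2 CPM in Tconv (−1.49 ± 0.10). Cd96, Cd160 and 4632428N05Rik (a former symbol of Vsir) were the other lower members (−0.88, −0.72 and −0.40), and the Cd160 call was lost without Treg 2 or Tconv 1. Cd28, the main costimulatory receptor, was at 725 and 746 CPM in Treg and 709 and 690.2 CPM in Tconv and was not called.

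Genes of extracellular adenosine and TGF-beta were higher in 10 of 18 and lower in 5 (median 0.25). Entpd1, the enzyme that breaks down extracellular ATP, was at 189.8 and 190.3 CPM in Treg and 12.2 and 11.9 CPM in Tconv (3.98 ± 0.15). Nt5e, which makes adenosine in the following step, was at 476 and 466 CPM against 154 and 143 CPM (1.66 ± 0.08), and Adora2a, an adenosine receptor, differed by 1.48 ± 0.11. Both enzymes of the pathway were higher in Treg. Itgav, the partner of Itgb8 in TGF-beta release, was at 765 and 762 CPM in Treg and 67.6 and 83.8 CPM in Tconv (3.33 ± 0.10), and Tgfb1 differed by 0.85 ± 0.08. The receptors of TGF-beta were split: Tgfbr1 was higher by 0.85, while Tgfbr2 was at 425 and 417 CPM in Treg and 1192 and 1079 CPM in Tconv (−1.43 ± 0.07).

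Helper cytokine genes were mostly lower in tumour Treg, with 7 of 13 tested genes lower and 2 higher (median −1.79, the same with genes at 0 set to their bound). Il10, an anti-inflammatory cytokine, was the exception with the largest size, at 93.4 and 92.7 CPM in Treg and 10.2 and 4.40 CPM in Tconv (3.70 ± 0.25, or 4.37 without Tconv 1). Csf1, a growth factor of macrophages, was the other higher gene (1.39 ± 0.10). Ifng, the macrophage-activating cytokine of type 1 helper cells, was at 3.08 and 3.58 CPM in Treg and 11.6 and 11.4 CPM in Tconv (−1.78 ± 0.24). Il17a was at 0.998 and 0.655 CPM against 4.74 and 6.03 CPM (−2.70 ± 0.44) and its relative Il17f at 0.0434 and 0.0437 CPM, 1 count in each Treg library, against 2.31 and 2.81 CPM. Il2 was likewise at 1 count in each Treg library and at 0.790 and 0.907 CPM in Tconv. Il21, a cytokine of follicular helper cells, had 0 counts in both Treg libraries and 61 and 62 counts in Tconv, at least 47.3-fold lower by a floor of 3 counts over the Treg group, which covers counting error only. On the same floor Il22 was at least 21.2-fold lower and Il4 at least 12.7-fold lower in Treg, with 29 and 4 counts of Il4 in Tconv. The Il4 bound rests on Tconv 1: it was 2.78-fold without that library and 25-fold without Tconv 2.

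Among helper transcription factors 10 of 22 were higher and 6 lower (median 0.23). Tbx21, the factor of type 1 helper cells, was at 37.9 and 42.3 CPM in Treg and 19.2 and 15.8 CPM in Tconv (1.20 ± 0.20). In the spleen Tbx21 was lower in Treg (−1.21), and the difference between sites was 2.41 (adjusted p = 1.1e-04). Hopx, a homeodomain protein, was at 408 and 347 CPM against 52.1 and 43 CPM (2.99 ± 0.11), Runx2 differed by 2.18 ± 0.09 and Bhlhe40 by 1.48 ± 0.19. Eomes, a factor of cytotoxic and memory cells, was lower at 2.26 and 2.36 CPM in Treg and 34.2 and 24.3 CPM in Tconv (−3.66 ± 0.23). Ikzf1, the gene of Ikaros, was lower at 379 and 375 CPM against 1359 and 1216 CPM (−1.77 ± 0.07). Bcl6, the factor of follicular helper cells, was lower in Treg in the tumour (−0.62) and higher in the spleen (0.81), with −1.44 between sites (adjusted p = 1.3e-04).

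Most of the naive and stem-like list fell, with 22 of 25 genes lower and 0 higher by edgeR (median −2.05, spleen median −1.19). The higher count was also 0 at an unadjusted p under 0.05, by DESeq2 and by limma-voom. Besides Tcf7, the related factor Lef1 was at 102 and 147 CPM in Treg and 867 and 886 CPM in Tconv (−2.82 ± 0.13). Bach2, a repressor that maintains resting T cells, was at 24.3 and 35.9 CPM against 265 and 289 CPM (−3.20 ± 0.14). Satb1, a chromatin organiser, was at 204 and 278 CPM against 1892 and 1830.0 CPM (−2.95 ± 0.13). In all 3 factors Treg 2 lay above Treg 1 and both far under Tconv. Bcl2, the survival factor, was at 62.9 and 64.3 CPM in Treg and 519.7 and 523 CPM in Tconv (−3.04 ± 0.07). S1pr1, the receptor with which T cells leave tissues, was at 322 and 456 CPM against 1865 and 1804 CPM (−2.24 ± 0.13), and Ccr7, the receptor of lymph node entry, at 681 and 684 CPM against 1304 and 1430.0 CPM (−1.0 ± 0.08). Il7r, the IL-7 receptor, had a small decrease (−0.36), and its call was lost without Treg 1, Treg 2 or Tconv 1. Foxo1, Id3 and Ccr9 were not called.

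Chemokine receptors and ligands were higher in 14 of 25 and lower in 2 (median 0.85), and the lower count was 1 without Treg 1. Ccr2, a receptor of inflamed tissue, was at 751 and 821 CPM in Treg and 24.1 and 29 CPM in Tconv (4.88 ± 0.29). Ccr3, known from eosinophils, was at 44.1 and 44.9 CPM against 0.282 and 0.272 CPM (7.30 ± 0.34). Both receptors were high in both Treg libraries. Ccr1 differed by 3.10 ± 0.45, with 4.15 without Tconv 2 and 2.50 without Tconv 1. Ccl5, a chemokine of activated T cells, was at 164 and 185 CPM in Treg and 62 and 65.5 CPM in Tconv (1.45 ± 0.18), opposite to its spleen difference of −1.43 (2.88 between sites, adjusted p = 2.0e-05). Cxcl10, an interferon-induced ligand of Cxcr3, was at 206 and 174 CPM against 49.4 and 44.6 CPM (2.02 ± 0.16). Among integrins and adhesion genes 12 of 23 were higher and 4 lower (median 0.48), and the lower count was 2 without Treg 1. Icam1 was at 314 and 350.0 CPM in Treg and 92.7 and 87.8 CPM in Tconv (1.88 ± 0.07), Cd44 differed by 0.92 ± 0.09 and Itgb7, the partner of Itgae, by 1.29 ± 0.08. Itga6, a laminin receptor chain, was lower (−0.63).

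Receptors of common gamma chain cytokines and of other cytokines, listed together with their regulators, were as often lower as higher, with 10 and 10 of 23 (median 0.20). Il12rb1, a chain of the IL-12 and IL-23 receptors, was at 171 and 136 CPM in Treg and 22.6 and 15.3 CPM in Tconv (3.03 ± 0.19). Cish, an inhibitor induced by IL-2, was at 485 and 442 CPM against 129.6 and 88.8 CPM (2.09 ± 0.13), and Il10ra differed by 1.77 ± 0.13. Ifngr2, the signalling chain of the interferon gamma receptor, was lower at 46.9 and 60.9 CPM in Treg and 450.0 and 466 CPM in Tconv (−3.09 ± 0.11), whereas the binding chain Ifngr1 was higher by 0.62. Il6ra was at 66.1 and 86.4 CPM in Treg and 337 and 325 CPM in Tconv (−2.12 ± 0.11), and Socs3, the inhibitor induced by IL-6, at 221 and 235 CPM against 1007 and 800.0 CPM (−1.99 ± 0.12). Il6ra and Socs3 were thus both lower. The related genes Il6st and Stat3 differed by −0.42 and 0.29, and IL-6 signalling was not tested.

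Cytotoxic granule genes were divided, with 7 of 16 higher and 6 lower (median 0.09, mean −0.58), and gene families with near-identical copies make the single values uncertain. Gzmb, a granule protease that some Treg use to kill, was at 765 and 833 CPM in Treg and 36.8 and 28.7 CPM in Tconv (4.61 ± 0.28). Gzmk was the reverse, at 1.08 and 1.35 CPM in Treg and 52.1 and 37.5 CPM in Tconv (−5.19 ± 0.23). Prf1, the pore-forming protein perforin, was at 15.1 and 17.1 CPM against 64.1 and 65 CPM (−2.00 ± 0.10). The receptors Klrk1 and Klrd1, shared with NK cells, were near 0 in Treg and at 9.42 and 13.9 CPM and 11.3 and 13.2 CPM in Tconv (−4.60 ± 0.35 and −4.60 ± 0.39). The granule proteoglycan Srgn was higher in Treg by 1.03.

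AP-1, Nr4a and Egr genes, which follow recent stimulation, were higher in 7 of 26 and lower in 4 (median 0.00), close to the shares over all genes on the higher side. The lower count was 7 without Tconv 1. Dusp4, a phosphatase of MAP kinases, was at 938 and 793 CPM in Treg and 68.4 and 53.2 CPM in Tconv (3.83 ± 0.14), and Nr4a1, induced by the antigen receptor, differed by 0.68 ± 0.11. Fos, a subunit of AP-1, was at 636 and 609 CPM in Treg and 1325 and 989 CPM in Tconv and Jun, its partner, at 374 and 408 CPM against 718 and 659.8 CPM. The groups did not overlap for either gene, but neither was called (−0.89 ± 0.84 and −0.82 ± 0.72), with a spread estimated over all 6 groups. Heat shock and stress genes were lower in 13 of 21 and higher in 2 (median −0.48). With a difference beyond 1.5-fold required, 4 were lower and 2 higher. Hspa1a was at 9.55 and 6.73 CPM in Treg and 72.2 and 27.1 CPM in Tconv (−2.60 ± 0.38, or −1.76 without Tconv 1), and has a near-identical copy in Hspa1b. The 2 higher genes were Ddit4, an inhibitor of mTOR signalling (2.73 ± 0.26), and Gadd45b (1.80 ± 0.11).

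Interferon response genes were higher in 22 of 30 and lower in 1 (median 0.61), with 17 higher without Tconv 2. Gbp3, a guanylate-binding protein, was at 332 and 318 CPM in Treg and 66.1 and 52.7 CPM in Tconv (2.46 ± 0.10). Irf8 was at 71.7 and 65.7 CPM against 14.6 and 14.8 CPM (2.23 ± 0.11), Oas1a differed by 1.91 ± 0.22 and Isg15, a ubiquitin-like antiviral protein, by 0.89 ± 0.13. Most differences in the list were under 2-fold, and 10 genes were higher and 0 lower when a difference beyond 1.5-fold was required. Oas2 was the member that fell (−0.63 ± 0.12), and Irf1, Irf9 and Ifit2 were not called. In the spleen 11 of the 30 were higher and 4 lower (median 0.19).

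Proliferation genes were higher in 19 of 28 and lower in 3 (median 0.68), against a spleen median of 1.34. The count ran from 15 without Treg 2 to 23 without Tconv 2. Requiring a difference beyond 1.5-fold left 10 genes higher and 0 lower. Mki67, the proliferation marker Ki-67, was at 184 and 209 CPM in Treg and 58.2 and 79.1 CPM in Tconv (1.51 ± 0.22). Top2a, a topoisomerase of dividing cells, was at 161 and 160.2 CPM against 65.3 and 89.7 CPM (1.05 ± 0.15), and Birc5, the mitotic protein survivin, at 20.8 and 19.7 CPM against 5.58 and 8.35 CPM (1.53 ± 0.24). In each of these Tconv 2 lay above Tconv 1 and below both Treg libraries. The replication genes Mcm4, Pcna and Mcm2 were lower in Treg (−0.52 ± 0.06, −0.43 ± 0.08 and −0.19 ± 0.06), and the Mcm2 call was lost without Treg 2 or Tconv 2.

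In metabolism, glycolysis and hypoxia genes were higher in 15 of 26 and lower in 5 (median 0.38), and the lower count was 3 without Treg 1. When a difference beyond 1.5-fold was required, 5 glycolysis and hypoxia genes were higher and 2 lower. Slc16a3, a lactate transporter, was at 203 and 175 CPM in Treg and 17.2 and 14.5 CPM in Tconv (3.58 ± 0.16). Ndrg1, induced by low oxygen, was at 357 and 344 CPM against 68.5 and 71 CPM (2.33 ± 0.06), and the glucose transporter Slc2a3 at 146 and 129 CPM against 51.9 and 52.5 CPM (1.39 ± 0.08). Pdk1, a kinase that keeps pyruvate from mitochondria, was lower at 96 and 93 CPM in Treg and 371 and 352 CPM in Tconv (−1.94 ± 0.07). Oxidative phosphorylation genes mostly did not pass the test, with 5 of 26 higher and 1 lower (median 0.08), although 10 were higher without Treg 2. Lipid and sterol genes were higher in 7 of 26 and lower in 6 (median −0.04, mean 0.06), shares near those of all genes. Cytosolic ribosomal protein genes were lower in 28 of 30 and higher in 0 by edgeR (median −1.10), also 0 at an unadjusted p under 0.05, by DESeq2 and by limma-voom. Their summed counts were 1.25 and 1.23% of the library in Treg and 2.78 and 2.62% in Tconv. Rpl4 was at 1768 and 1894 CPM in Treg and 4090.0 and 3689 CPM in Tconv (−1.09 ± 0.07), and Rps15 at 662 and 703 CPM against 1644 and 1536 CPM (−1.22 ± 0.07). Ribosomal protein genes have many near-identical copies, so that single values are uncertain.

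**Figure D3:**
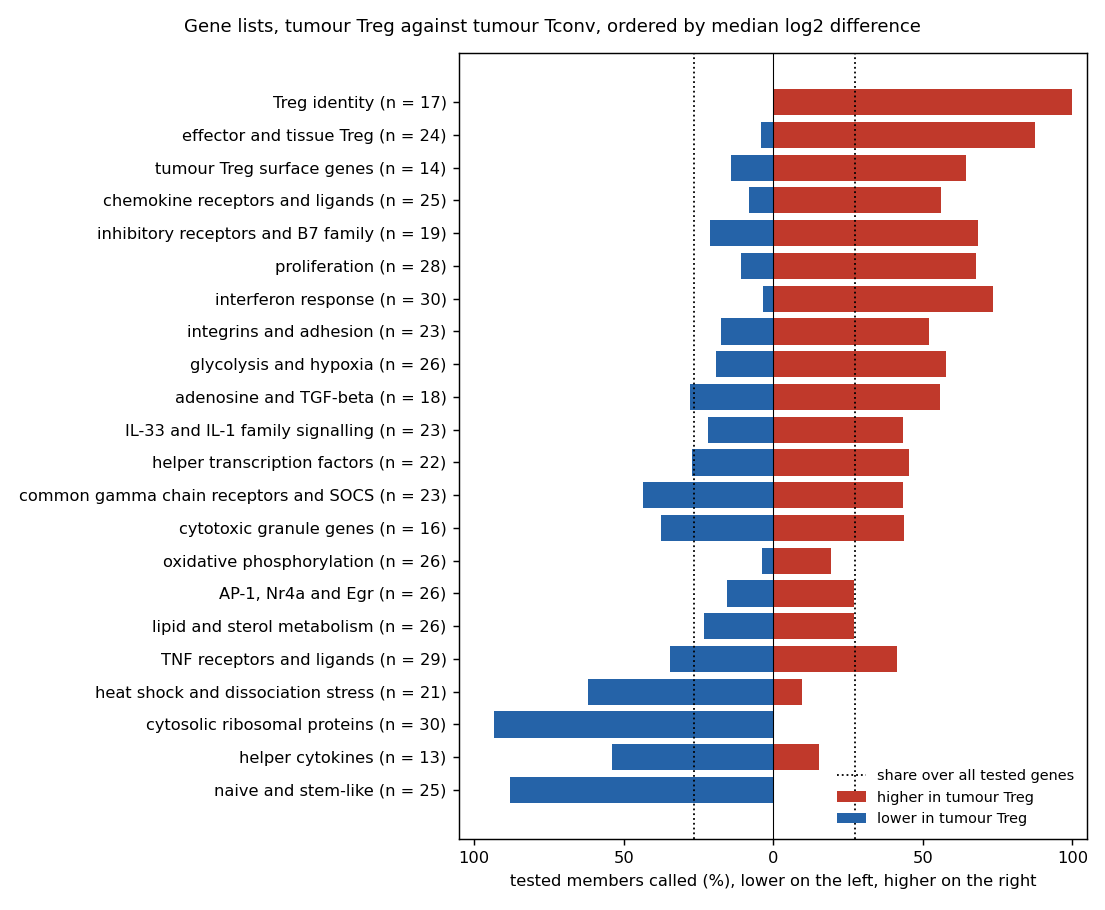
Share of the tested members of each gene list that were called higher (red, right) or lower (blue, left) in tumour Treg, in percent, with the number tested in parentheses and the lists ordered by median difference. Dotted lines mark the shares over all tested genes, 27.2% higher and 26.7% lower. Treg identity (17 of 17 higher) and naive and stem-like genes (22 of 25 lower) stand at the ends. The lists were chosen with earlier results of these data known.

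The same Treg minus Tconv difference was set beside that in the spleen of tumour-bearing mice, whose 4 libraries are not part of the tumour groups but share the scaling and the estimate of the spread, and so the SEs and calls. In the spleen 5447 genes (40.3%) were called, 2833 higher (21%) and 2614 lower (19.4%). Of the 3676 genes higher in tumour Treg 2018 were also higher in spleen Treg, which is 54.9% of the tumour list and 71.2% of the spleen list, and 102 were lower in spleen Treg. Of the 3601 genes lower in tumour Treg 1881 were also lower in the spleen, 52.2% of the tumour list and 72% of the spleen list, and 101 were higher there. The difference between the tumour and spleen values was called in 3337 genes (24.7%), 1574 upward (11.7%) and 1763 downward (13.1%). At least 2-fold differences were called in 1413 genes higher and 1008 lower in the tumour, and in 1433 and 562 in the spleen, and at least 8-fold ones in 250 and 151 in the tumour and 346 and 154 in the spleen. Without TB spleen Treg 1 the 3337 became 2161, and without TB spleen Tconv 2 the upward count became 1036. Tumour and spleen differ in organ as well as in tumour, and these cannot be told apart here.

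Some genes crossed from lower in spleen Treg to higher in tumour Treg. Plac8 (chromosome 5, 100553725 to 100572245) was at 353 and 244 CPM in tumour Treg and 13.6 and 10.9 CPM in tumour Tconv (4.62 ± 0.25). In the spleen it was at 4.42 and 4.45 CPM in Treg and 7.97 and 14.3 CPM in Tconv (−1.34), and the difference between sites was 5.96 (adjusted p = 1.8e-06). Plac8 was thus high in tumour Treg alone among the tumour-bearing groups. Id2 (chromosome 12, 25093799 to 25097140), an inhibitor of helix-loop-helix factors that marks effector cells, was at 676 and 674 CPM in tumour Treg and 144 and 125 CPM in tumour Tconv (2.33 ± 0.12). In the spleen it was at 82 and 81.7 CPM in Treg and 212 and 289 CPM in Tconv (−1.61), so Treg were the higher group in the tumour and the lower group in the spleen (3.94 between sites). Pcsk1, a protease that processes prohormones, was at 24.6 and 25 CPM against 3.38 and 3.27 CPM in the tumour (2.90 ± 0.21) and lower in spleen Treg (−2.38, with 5.27 between sites). Sytl3, a protein of vesicle release, was higher in tumour Treg (0.94) and lower in spleen Treg (−2.50), with 3.44 between sites. Cxcr6 (chromosome 9, 123806475 to 123811760), a receptor of tissue-resident T cells, was not called in the tumour, at 63.9 and 55.2 CPM in Treg and 47.9 and 52 CPM in Tconv (0.25 ± 0.14). In the spleen it was at 2.78 and 3.17 CPM in Treg and 79.2 and 108 CPM in Tconv (−4.97), and the sites differed by 5.23 (adjusted p = 1.3e-07). The spleen Treg libraries were the low ones for Cxcr6.

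In the other direction Tnfsf11 (chromosome 14, 78277445 to 78308043), the osteoclast factor RANKL, was at 36.8 and 33.3 CPM in tumour Treg and 124 and 109.7 CPM in tumour Tconv (−1.74 ± 0.09). In the spleen it was higher in Treg, at 62.6 and 57.1 CPM against 28.4 and 25.8 CPM (1.14), and the sites differed by −2.88 (adjusted p = 1.3e-07). Matn2, an extracellular matrix protein, was higher in Treg at both sites, at 45.5 and 42.7 CPM against 3.89 and 8.21 CPM in the tumour (2.83 ± 0.21, or 3.49 without Tconv 2), and by 6.44 in the spleen (−3.60 between sites, or −2.95 without Tconv 2). Il1rn had 0 and 1 counts in spleen Tconv, so that only its levels are given: 4.70 and 4.06 CPM in spleen Treg beside 24.6 and 22.6 CPM in tumour Treg. Ctnnd1, a catenin that shares 61.2% of its exon bases with another gene on the same strand, was at 24.1 and 26.1 CPM in tumour Treg and 6.88 and 23.6 CPM in tumour Tconv (0.71 ± 0.36, not called, but 1.86 without Tconv 2). It was higher by 6.07 in spleen Treg, with −5.36 between sites (−6.0 without Tconv 1 and −4.21 without Tconv 2). Atp6v0d2, a proton pump subunit of myeloid cells, was at 24 and 34.6 CPM against 7.67 and 23.7 CPM (0.88 ± 0.33, adjusted p = 0.04). That call was lost without Treg 2, without Tconv 1 and without any 1 of the 8 spleen libraries, while the difference was 1.92 without Tconv 2. These genes were higher in Tconv 2 than in Tconv 1, by 3.42-fold (Ctnnd1), 3.09-fold (Atp6v0d2), 2.85-fold (Il1rn) and 2.11-fold (Matn2), beside 2.64-fold for the fibroblast markers. The part of other cells in these values was not tested.

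**Figure D4:**
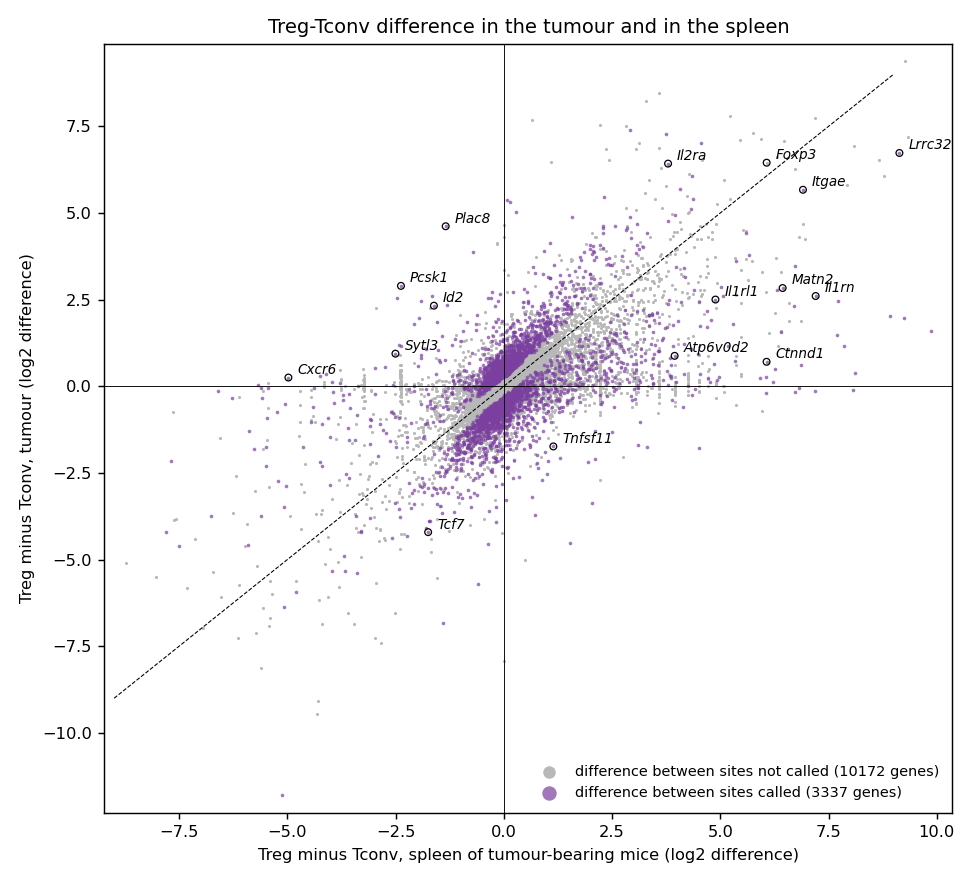
Each point is 1 tested gene, with its Treg minus Tconv difference (log2) in the spleen of tumour-bearing mice on the horizontal axis and in the tumour on the vertical axis. Purple points are the 3337 genes whose difference was called as unequal between sites, and the dashed line marks equal values. Plac8, Pcsk1, Id2 and Sytl3 lie at the upper left, lower in spleen Treg and higher in tumour Treg, and Tnfsf11 lies in the lower right.

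Markers of other cell types were present at low levels in all 4 tumour libraries. Fibroblast markers took 0.0739 and 0.0816% of the counts in Treg and 0.0413 and 0.109% in Tconv, and macrophage and monocyte markers 0.0515 and 0.0658% in Treg and 0.0324 and 0.0857% in Tconv. For both lists the Treg libraries lay between the Tconv libraries, and 0 of 10 and 0 of 16 tested genes were called by edgeR, as at an unadjusted p under 0.05, by DESeq2 and by limma-voom. Without Tconv 2, 8 fibroblast and 5 macrophage markers were called higher in Treg, and without Tconv 1, 6 and 5 were called lower. Col3a1, a collagen, was at 187 and 176 CPM in Treg and 95.3 and 236 CPM in Tconv, and Lyz2, the myeloid lysozyme, at 217 and 309.9 CPM against 153 and 391 CPM. Dendritic cell markers were higher in 5 of 9 and lower in 1, at 0.0289 and 0.0285% of counts in Treg and 0.00373 and 0.00558% in Tconv. Cd74, the invariant chain of class II molecules, was at 236 and 244 CPM in Treg and 24.4 and 30.4 CPM in Tconv (3.13 ± 0.20), and Zbtb46 at 26.8 and 19.7 CPM against 2.93 and 1.95 CPM (3.26 ± 0.27). Siglech, of plasmacytoid dendritic cells, was the lower member, with 0 counts in both Treg libraries, at least 13.1-fold lower on the floor of 3 counts. Its call was lost without Treg 1, without Treg 2 and by DESeq2. The dendritic markers Clec9a, Flt3 and Cd209a were each under 0.5 CPM in every tumour library. Cd79b was the B cell marker that was higher, at 16.9 and 16.2 CPM in Treg and 0.621 and 0.590 CPM in Tconv (4.77 ± 0.19), while Cd22 was lower (−1.18) and Ms4a1 and Pax5 were at 0.136 CPM or less. Of 13 epithelial markers 2 were higher and 1, Cdh1, was lower (−1.12), a call lost without Treg 1. Epcam, an epithelial adhesion molecule, was higher at 26.7 and 23.2 CPM in Treg and 2.76 and 3.81 CPM in Tconv (2.91 ± 0.18), while the lung genes Sftpb, Sftpc and Scgb1a1 were not called. Of the remaining lists the tested genes called were Cd8a and Cd8b1 (higher, 1.43 and 0.44), Klrb1c and Klre1 of NK cells (lower, at 0.130 and 0.743 against 2.48 and 5.76 CPM and 0.0434 and 0 against 0.508 and 0.681 CPM), 1 of 8 neutrophil markers, Mmp9 (higher, 2.56), 1 of 4 mast cell markers, Hdc (lower, −0.95) and 1 of 6 endothelial markers, Pecam1 (lower, −1.19). The Hdc and Cd8a calls were lost without Treg 1, Treg 2 or Tconv 1, and without Tconv 2 Mmp9 was 3.64 and Cd8a 2.03. The Klrb1c difference of −3.26 was −2.50 without Treg 1, −4.96 without Treg 2 and −2.51 without Tconv 2. Activated T cells express several of these markers themselves, and their source was not tested.

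**Figure D5:**
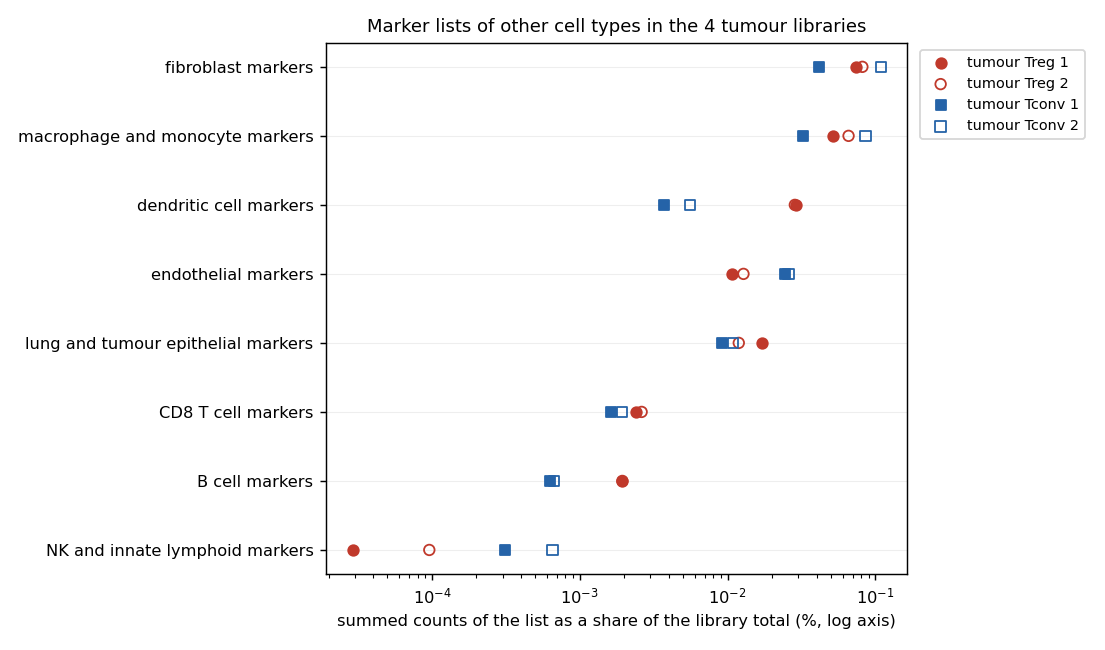
Summed counts of the markers of 8 other cell types as a share of all counts in each tumour library (percent, logarithmic axis), with red circles for Treg and blue squares for Tconv, filled for replicate 1 and open for replicate 2. Fibroblast markers run from 0.0413% in Tconv 1 to 0.109% in Tconv 2 with both Treg libraries between them, and dendritic cell markers are higher in both Treg libraries.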

How the data were processed

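Raw gene counts were deposited by the authors as 1 table of 24062 genes by 12 libraries, and per the labels the libraries were stranded mRNA libraries. The tools STAR and featureCounts and the build mm10 are named in the submitters' processing notes, without versions. For featureCounts no strand setting was found in those notes or the labels. Of the genes, 5873 had 0 counts everywhere. All 12 libraries (6 groups of 2) were fitted together with edgeR 4.0.16 (R 4.3.3): filterByExpr left 13509 genes, scaling was by TMM, and glmQLFit and glmQLFTest gave two-sided p values, adjusted by Benjamini and Hochberg, called under 0.05. The common biological coefficient of variation was 0.0863, on 6 residual degrees of freedom. The contrasts were tumour Treg minus tumour Tconv, the same in the spleen of tumour-bearing mice, and their difference. Named are Foxp3, Il1rl1, Il33 and Il1rap, the 10 largest called increases and decreases whose mean log2 CPM reached 3 without overlap between groups, the 5 largest differences between sites in each direction on the same limits, and members of 33 gene lists. Gene models without a name, receptor segments and pseudogenes were passed over. Of 622 list members 621 were matched and 579 tested. The members and lists were chosen with earlier results of these data known. Coordinates are from the GENCODE annotation of mm10, start regions from RefSeq on GRCm38.p6. Of the genes named, Ctnnd1 and Ifng share over 20% of their exon bases with a gene on the same strand, and Ebi3, Tnfrsf18 and Hopx with a gene on the opposite strand, so their values are uncertain. The scripts were tested on simulated data. Alternatives were DESeq2 1.42.0, limma-voom (limma 3.58.1), other scalings, filters, thresholds and sample sets, and fits without 1 library each. Plots were made in matplotlib 3.10.9.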

Additional observations from a re-analysis of the deposited data

Results flagged for a closer look

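A direct test of whether the Treg minus Tconv difference was the same in the tumour and in the spleen of tumour-bearing mice singled out 3337 genes. The values below are differences between sites (tumour minus spleen, log2) that this test called for Il1rl1, Il1rap and the genes named for the size of their difference, and called list members are not repeated here. Of genes higher in tumour Treg, Il2ra (2.63), Cd83 (1.64), Tnfrsf9 (0.81), Sv2c (3.16) and Dgat2 (1.04) had a larger difference in the tumour. Their pick by the size of the tumour difference favours this direction. Il2ra was at 42.5 and 65.9 CPM in spleen Tconv, against 18.3 and 17.2 CPM in tumour Tconv. The Sv2c call was lost without TB spleen Tconv 2 (2.45), and the Dgat2 call without tumour Treg 1 (0.86) or tumour Tconv 1 (0.90) and without 3 of the 4 spleen libraries of these mice. Il1rl1 (−2.39), Lrrc32 (−2.40) and Itgae (−1.24) were higher in Treg at both sites with a smaller difference in the tumour. Without TB spleen Tconv 1 and TB spleen Tconv 2 in turn, Lrrc32 was −1.73 and −4.06 and Itgae −0.77 (call lost) and −2.08.

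Of genes lower in tumour Treg, Vipr1 (−1.28), Dapl1 (−1.16), Tdrp (−1.68), Hs3st3b1 (−1.37), Rapgef4 (−1.80), Tcf7 (−2.46), Tgfbr3 (−0.89) and St8sia1 (−2.17) had a larger decrease in the tumour, and Atp8b4 (1.33) a smaller one. The pick of these genes by the size of their tumour decrease favours a larger decrease there. The Dapl1 call was lost without tumour Treg 1 (−0.80). Il1rap differed between sites by −0.38, a call lost without most single libraries. The genes with the largest differences between sites were Plac8 (5.96), Pcsk1 (5.27), Cxcr6 (5.23), Id2 (3.94) and Sytl3 (3.44) upward, and Ctnnd1 (−5.36), Il1rn (−4.60), Matn2 (−3.60), Atp6v0d2 (−3.07) and Tnfsf11 (−2.88) downward. The Il1rn value depends on a spleen Tconv level of 0 and 1 counts, is no bound, and lost its call without either spleen Tconv library. Without tumour Tconv 1 and tumour Tconv 2 in turn, Atp6v0d2 was −3.66 and −2.02. No cause of these differences was tested.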

How the results depend on the processing

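With scaling by DESeq2 size factors, scaling by library size, no filter, a filter at 1 CPM, DESeq2, limma-voom, an adjusted p of 0.01 and the smaller sample sets, the tumour count of 7277 ran from 5430 (the 4 tumour libraries alone) to 7382 (limma-voom), and no gene named or listed and called turned direction. Requiring more than 1.5-fold left 2693 genes in the tumour (1495 higher, 1198 lower), 1942 in the spleen (1346 and 596) and 568 between sites (217 and 351). Under that requirement 27 of the 66 higher and lower counts of the gene lists changed by more than 1.5-fold. At an adjusted p of 0.01 the count between sites was 1731 (798 and 933), and with the 8 libraries of tumour-bearing mice alone its upward part was 945. Leaving out 1 library at a time gave 6190 to 7251 in the tumour (higher 3135 to 3828, lower 3055 to 3765), 4085 to 5964 in the spleen (higher 2220 to 3102, lower 1820 to 2889) and 2161 to 3679 between sites (upward 1003 to 1781, downward 1158 to 1979), and the cause was not tested. The labels give no shared litter or day for replicate numbers, and same-numbered tumour libraries deviated together weakly (r = 0.15 across 8982 genes, 2 pairs). With the replicate number as a block the tumour count was 5744 in the 4 tumour libraries and 6662 in 8, that of the spleen 4670 and that between sites 2382 (934 upward). With 2 libraries a group, small differences and genes of few counts, such as Il33 and the helper cytokines, are the least certain, and the differences between the tumour Tconv libraries include the markers of fibroblasts and macrophages.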
